A study of Mus musculus with 5 samples.

Results

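The homeobox gene clusters HoxB, HoxC and HoxD and the ParaHox group (Gsx1, Pdx1 and Cdx2) were examined for ubiquitinated histone H2A, the mark H2AK119Ub, in mouse haematopoietic progenitors. Members were the peaks that shared at least 1 bp with one of 4 fixed windows of the mm9 genome. The windows were chromosome 11, 96040000 to 96240000 (HoxB, 10 genes), chromosome 15, 102740000 to 102875000 (HoxC, 9 genes), chromosome 2, 74490000 to 74610000 (HoxD, 9 genes), and chromosome 5, 147990000 to 148125000 (ParaHox, 3 genes). They held 32 of the 5132 peaks of 4 deposited peak lists. Of these, 12 of 1332 were in the list of non-transduced cells, 3 of 620 in the HOXA9 list, 8 of 1772 in the PML-RARa list and 9 of 1408 in the MLL-AF9 list.

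The peaks came from chromatin immunoprecipitation and sequencing (ChIP-seq) with an H2AK119Ub antibody. All cells were lineage-negative bone marrow cells of C57BL/6 mice with the genotype R26CreERT2;Ring1a-/-;Ring1bf/f;Cdkn2a-/-, kept in liquid culture. Every group, the non-transduced one included, therefore lacked Ring1a and Cdkn2a and carried conditional Ring1b alleles with a Cre-ERT2 gene at the Rosa26 locus; the labels do not state whether Ring1b had been deleted. The other cultures were transduced with HOXA9, a homeobox transcription factor, with PML-RARa, the fusion oncoprotein of acute promyelocytic leukaemia, or with MLL-AF9, a fusion oncoprotein of acute myeloid leukaemia. No culture transduced without an oncogene was described, so transduction and oncogene cannot be told apart. Neither age nor sex of the mice, nor the number of mice per library, is stated in the labels.

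There was 1 library per group, so no difference could be tested and every comparison is between single libraries. The lists hold no read counts, so depth is unknown and no counting interval can be given. In a bulk library, fewer cells with the mark and less mark per cell cannot be told apart. The peak score is the authors' own value, of unstated scale, and served only for ranks, cut-offs and medians within a list. Listed peaks had scores of at least 700 to 703, and the peak numbers had gaps (66.8 to 83.4% of the numbers were listed), so an absent peak means only that none was listed.

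Hox genes encode homeodomain transcription factors that lie side by side in clusters, in an order that matches where along the body axis they act. In cells that do not use them, the clusters are the best-known wide targets of the Polycomb system: Polycomb repressive complex 1 (PRC1) ubiquitinates H2A through RING1A or RING1B, and Polycomb repressive complex 2 methylates histone H3. Polycomb domains of vertebrates are typically centred on unmethylated CpG islands. The ParaHox genes are relatives of the Hox genes: Gsx1 acts in the brain, Pdx1 in the pancreas, and Cdx2, which can activate Hox genes, in the intestine and trophectoderm. Blood progenitors are known to use chiefly genes of the HoxA cluster and some of HoxB, among them Hoxb4, whose forced expression expands haematopoietic stem cells.

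Genes were sorted by start coordinate in the RefSeq gene table (build GRCm38.p6, used for names and neighbours only). In this order HoxB begins with Hoxb13, followed by Hoxb9, Hoxb8, Hoxb7, Hoxb6, Hoxb5, Hoxb3, Hoxb4, Hoxb2 and Hoxb1. HoxC begins with Hoxc13, next to Calcoco1, and runs through Hoxc12, Hoxc11, Hoxc10, Hoxc9, Hoxc8, Hoxc6 and Hoxc5 to Hoxc4. HoxD begins with Hoxd13, next to the homeobox gene Evx2, and runs through Hoxd12, Hoxd11, Hoxd10, Hoxd9, Hoxd8, Hoxd3 and Hoxd4 to Hoxd1, followed by Mtx2. An order of start coordinates can differ from the order of overlapping genes along a cluster. Hoxb3 before Hoxb4, and Hoxd3 before Hoxd4, is therefore an order of starts only. The ParaHox order is Gsx1, Pdx1 and Cdx2, with Urad next. All 31 genes were matched in that table, and no other protein-coding gene started between the outer members of any cluster. The genes were not placed on mm9, so peaks are described by their position in a cluster's window and are assigned to no single gene.

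Promoter entries were found for 16 of the 31 genes (51.6%): 3 in HoxB, 1 in HoxC, 9 in HoxD and 3 in ParaHox. Genes without an entry were Hoxb2, Hoxb3, Hoxb5, Hoxb6, Hoxb7, Hoxb9, Hoxb13, Hoxc5, Hoxc6, Hoxc8, Hoxc9, Hoxc10, Hoxc11, Hoxc12 and Hoxc13. At this coverage a check of CpG content over the clusters is void. For each cluster the matched promoter with the most CpG dinucleotides is shown, and Cdx2 beside it, because the ParaHox window has separate domains at its opposite ends. The sequences are the 250 bases before the RefSeq start (GRCm38.p6), on the gene's strand (minus for Cdx2, plus for the others), with CG in capitals as the feature of CpG islands.
Hoxb4: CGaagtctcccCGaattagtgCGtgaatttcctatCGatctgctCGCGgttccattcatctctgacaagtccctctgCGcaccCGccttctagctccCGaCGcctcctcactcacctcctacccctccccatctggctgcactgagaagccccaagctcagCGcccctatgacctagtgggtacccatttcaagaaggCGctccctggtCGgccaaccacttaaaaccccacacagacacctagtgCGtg
Hoxc4: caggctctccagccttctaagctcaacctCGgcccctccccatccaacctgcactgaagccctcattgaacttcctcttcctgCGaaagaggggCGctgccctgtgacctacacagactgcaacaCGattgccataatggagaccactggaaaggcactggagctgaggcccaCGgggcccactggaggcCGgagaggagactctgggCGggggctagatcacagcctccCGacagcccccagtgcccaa
Hoxd13: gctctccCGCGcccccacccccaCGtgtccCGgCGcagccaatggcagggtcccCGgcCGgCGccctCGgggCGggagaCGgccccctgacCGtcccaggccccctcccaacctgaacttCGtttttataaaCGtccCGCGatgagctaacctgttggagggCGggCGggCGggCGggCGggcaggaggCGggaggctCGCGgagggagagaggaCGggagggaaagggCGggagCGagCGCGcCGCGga
Gsx1: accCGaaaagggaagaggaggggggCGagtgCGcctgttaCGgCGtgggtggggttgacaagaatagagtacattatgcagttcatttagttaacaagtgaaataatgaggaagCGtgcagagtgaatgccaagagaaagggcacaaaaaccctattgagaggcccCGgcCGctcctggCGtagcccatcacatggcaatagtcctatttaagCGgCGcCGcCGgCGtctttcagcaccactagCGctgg
Cdx2: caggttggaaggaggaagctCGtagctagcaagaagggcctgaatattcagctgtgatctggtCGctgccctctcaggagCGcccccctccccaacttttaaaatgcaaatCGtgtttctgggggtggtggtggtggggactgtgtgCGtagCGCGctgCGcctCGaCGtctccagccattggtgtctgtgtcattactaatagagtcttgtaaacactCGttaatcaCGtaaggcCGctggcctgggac

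Hoxd13, the outermost gene of HoxD, which patterns digits, had 31 CG in this stretch, and 5.19% of the 32851 promoter entries had as many or more. The Gsx1 promoter had 15 (27.3% of entries had as many or more), Hoxb4 14 (29.4%), Cdx2 13 (31.5%) and Hoxc4 8 (43.0%). The median over all entries was 6. Apart from Cdx2, these promoters were picked as the highest of their cluster, so their place above the median was largely fixed by the choice. Cluster entries not shown ran from 2 CG (a Hoxd11 entry, 81.2%) to 24 (Hoxd1, 12%). Whether the clusters' promoters are rich in CG was therefore not shown. CG was counted as those letters alone, which read the same on either strand. The counts describe these stretches and show no binding.

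The clusters also hold microRNA genes. By start coordinate, Mir196a-1 falls between Hoxb13 and Hoxb9, Mir10a between Hoxb3 and Hoxb4, and Mir196a-2 between Hoxc10 and Hoxc9. Mir615 starts after Hoxc5 and before Hoxc4, and Mir10b after Hoxd4 and before Hoxd1. In ParaHox, Mir7k starts after Pdx1 and before Cdx2. This is an order of starts only and does not show whether a microRNA lies inside or outside a neighbouring gene. A mature form of each microRNA of the Hox clusters is shown because these sequences link the clusters: the seed (bases 2 to 8, in capitals) of the HoxB microRNA miR-10a-5p is that of the HoxD microRNA miR-10b-5p, and miR-196a-5p comes from HoxB and HoxC alike. Sequences are from RefSeq (GRCm38.p6).
miR-10a-5p: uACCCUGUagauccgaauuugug
miR-10b-5p: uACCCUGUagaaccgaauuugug
miR-196a-5p: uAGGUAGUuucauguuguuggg
miR-615-3p: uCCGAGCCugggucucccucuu

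H2AK119Ub covered the clusters to very different extents. HoxC was covered almost from edge to edge in every list, HoxB over 49.1 to 64.1% of its window in all lists but HOXA9, HoxD over its left side with a longer cover in MLL-AF9, and ParaHox only at its ends, apart from 1 further MLL-AF9 peak. Over the 590.0 kb of the 4 windows together, the covered length was 347 kb in non-transduced cells, 221 kb with HOXA9, 347 kb with PML-RARa and 382 kb with MLL-AF9. The ratios to the non-transduced list were thus 0.635, 1.00 and 1.10, beside 0.426, 1.14 and 0.859 for the whole lists. These windows made up 1.11% of the covered length of the non-transduced list, 1.65% of HOXA9, 0.973% of PML-RARa and 1.42% of MLL-AF9.

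**Figure D1:**
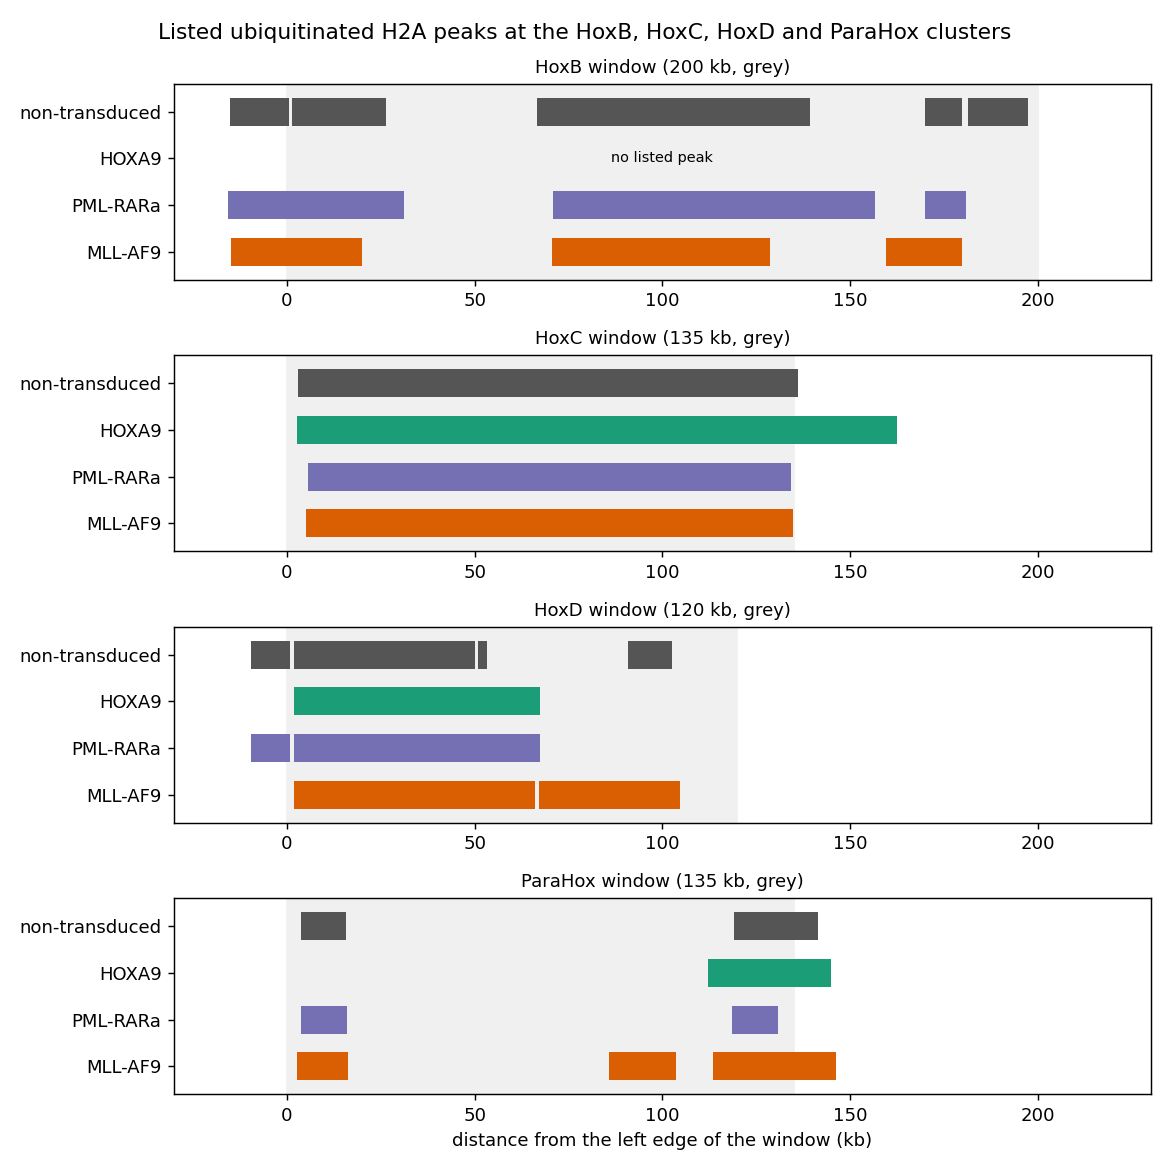
Each bar is a listed H2AK119Ub peak in the non-transduced, HOXA9, PML-RARa or MLL-AF9 list (1 library each), drawn by its distance in kb from the left edge of the HoxB, HoxC, HoxD or ParaHox window, which is shaded grey. HoxC has 1 peak over nearly the whole window in all 4 lists, HoxB has no HOXA9 peak, and the MLL-AF9 list alone has a peak in the middle of the ParaHox window.

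The HoxC cluster, whose genes include Hoxc13 of hair and nail and Hoxc10 of the hindlimb, carried a single peak in each list. It ran from 102743028 to 102876080 in non-transduced cells, from 102742683 to 102902590 with HOXA9, from 102745718 to 102874297 with PML-RARa and from 102745099 to 102874819 with MLL-AF9. The lengths were 133, 160, 129 and 130 kb. Inside the window the cover was 97.8% in non-transduced cells, 98.0% with HOXA9, 95.2% with PML-RARa and 96.1% with MLL-AF9. The lists therefore hardly differed there, with ratios to the non-transduced list of 1.00, 0.974 and 0.983.

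A stretch of 129 kb (95.2% of the HoxC window) was covered in all 4 lists. Inside the window, at least 97.2% of the length covered in one list was covered in the other, in each of the 12 ordered pairs of lists. The range for the whole lists was 26.5 to 72.6%, but that counts whole peaks at all places, so the measures are unlike. Length past the window's edges was left out at HoxC. With whole peaks the HOXA9 ratio to the non-transduced list was 1.2 there. The left ends lay within 3035 bp of one another. The right ends of the non-transduced, PML-RARa and MLL-AF9 peaks lay within 1783 bp, and the HOXA9 peak went 27.6 kb past the window's right edge. The nearest MLL-AF9 peak outside the window began at 102909725, 34.7 kb from that edge, so it did not overlap the HOXA9 extension.

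These HoxC peaks were among the widest of their lists. The HOXA9 peak was the widest of 620, the non-transduced and MLL-AF9 peaks ranked 2 by width in theirs, and the PML-RARa peak ranked 5. Their score ranks differed far more: 11 of 1408 in MLL-AF9, 181 of 1772 in PML-RARa, 242 of 620 in HOXA9 and 604 of 1332 in non-transduced cells (tied scores share the best rank). Expressed as a share of the list, the score stood at the upper 0.781% in MLL-AF9 and at the upper 45.3% in non-transduced cells, while the cover was nearly the same. Between its neighbours, no peak number was missing around the MLL-AF9 peak, 1 was missing in PML-RARa and 2 in the non-transduced list. In HOXA9 4 were missing before the peak and 4 after it, and since the next listed HOXA9 peak was on chromosome 16, those after it may belong to either chromosome.

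The HoxB cluster runs from Hoxb13, known from the prostate, to Hoxb1, known from the hindbrain. In the non-transduced list it had 5 peaks, at 96024987 to 96040620, 96041451 to 96066368, 96106629 to 96179318, 96209843 to 96219792 and 96221293 to 96237396. They covered 124 kb of the window (62.1%). The PML-RARa list had 3 peaks, at 96024303 to 96071260, 96110826 to 96196529 and 96209830 to 96221000, covering 128 kb (64.1%). The MLL-AF9 list also had 3, at 96025020 to 96059959, 96110614 to 96168648 and 96199600 to 96219826, covering 98.2 kb (49.1%). In the HOXA9 list no peak touched the window (0 kb).

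The 3 lists with HoxB peaks shared the same plan: a block at the left edge, a wide block in the middle and a block to its right. The ratio of PML-RARa to non-transduced cover, 1.03, fell to 0.896 with the upper 50% of each list by score and to 0.792 with the best 620 peaks of each. The 3 lists covered 86.9 kb of the window in common, of which 57.8 kb lay in the wide middle block. A stretch of 35.4 kb between the left and the middle block (96071261 to 96106628) was covered in no list, and no peak number was missing between the peaks on its sides in any of these 3 lists.

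Some ends at HoxB lay close together, and the pairs of lists named here are the closest ones. How often a pair of lists matched as closely elsewhere was not computed. The left block began within 33 bp in the non-transduced and MLL-AF9 lists and within 717 bp in all 3. The right block began 13 bp apart in the non-transduced and PML-RARa lists and ended 34 bp apart in the non-transduced and MLL-AF9 lists. The middle block was less alike: its right end was at 96168648 in MLL-AF9, 96179318 in non-transduced cells and 96196529 in PML-RARa, a spread of 27881 bp. The rightmost peak, of 16.1 kb, was in the non-transduced list only. No number was missing there in PML-RARa, so no numbered PML-RARa call was left out, whereas 2 MLL-AF9 numbers were missing between 96219826 and 96852669.

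The wide middle block of HoxB was 72.7 kb in non-transduced cells (width rank 45 of 1332), 85.7 kb in PML-RARa (rank 15 of 1772) and 58.0 kb in MLL-AF9 (rank 48 of 1408). By score it ranked 211 in the non-transduced list, 119 with PML-RARa and 572 with MLL-AF9. The highest-scored HoxB peak of the non-transduced list was the narrower one of 24.9 kb in the left block (rank 60).

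The absence of HoxB from the HOXA9 list was the largest difference in covered length among the 12 ratios of a cluster to the non-transduced list (ratio 0). The listed HOXA9 peaks on either side ended at 95870786 and began at 96868604, and 2 peak numbers were missing in the 998 kb between them. At most 2 numbered HOXA9 calls can therefore have been left out there, in a stretch that held 6 non-transduced, 4 PML-RARa and 4 MLL-AF9 peaks. The left neighbour itself was present in HOXA9 and non-transduced cells at nearly the same place, with 28.7 and 28.6 kb.

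This absence must be read against the short HOXA9 list. No HOXA9 peak overlapped 68.7% of all 1332 non-transduced peaks, and at the 4 clusters 8 of 12 (66.7%), 5 of them in HoxB, so the clusters together stood close to the whole list. Of the 45 non-transduced peaks at least as wide as the HoxB middle block, 31 (68.9%) had no HOXA9 partner. By score the counts were lower. Of the 67 with a score at least as high as the best HoxB peak, 24 (35.8%) had none, and of the 236 scored at least as high as the middle block 103 (43.6%) had none. For the HoxB peaks of 15.6, 9.95 and 16.1 kb, 55.9, 53.2 and 60.9% of the peaks scored at least as high had none. Peaks as wide as the middle block thus mostly lacked a HOXA9 partner. Most peaks scored as high as the best HoxB peak or the middle block had one. Most peaks scored as high as the other HoxB peaks did not. All 5 HoxB peaks had none. Whether HoxB stood apart was not tested.

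In the other lists fewer cluster peaks lacked a partner, with the caution that the 12 peaks sit side by side in 4 places. No PML-RARa peak overlapped 2 of the 12 non-transduced peaks, against 35.9% of the whole list, and no MLL-AF9 peak 2 of 12, against 42.6%. In the other direction, 0 of 3 HOXA9 peaks lacked a non-transduced partner (33.7% of the whole list), 0 of 8 PML-RARa peaks (51.8%) and 1 of 9 MLL-AF9 peaks (45.5%). These comparisons share the non-transduced list and were not tested.

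**Figure D2:**
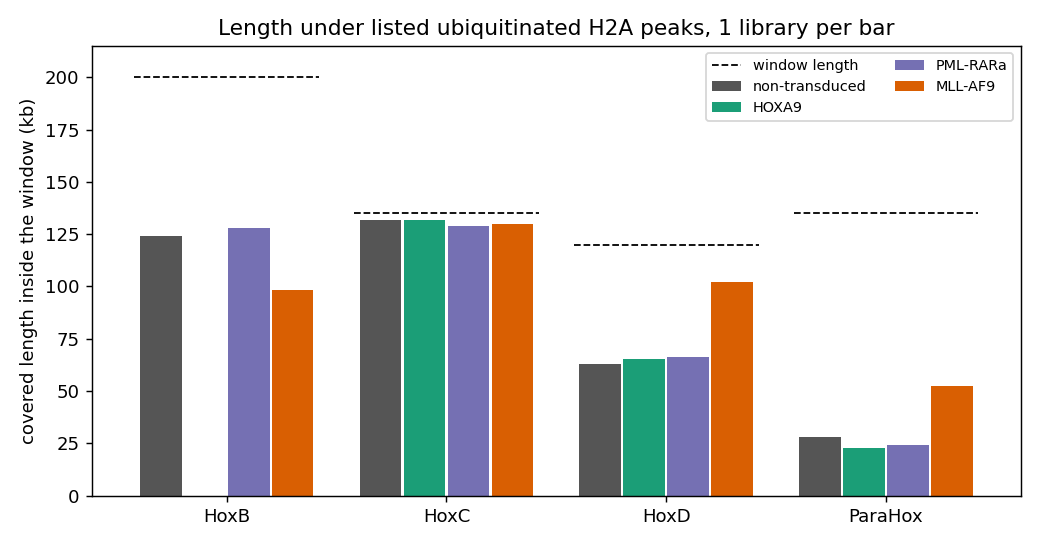
Bars give the length in kb under listed peaks inside each window, for 1 library per bar; dashed lines mark the window length. The 4 HoxC bars lie between 129 and 132 kb, HOXA9 is at 0 in HoxB, and MLL-AF9 has the highest bars in HoxD (102 kb) and ParaHox (52.6 kb).

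The HoxD cluster, whose genes at the Hoxd13 end pattern limbs and digits, was marked on its left side in every list. The non-transduced list had 4 peaks, at 74480394 to 74490862, 74491958 to 74540040, 74540920 to 74543307 and 74580900 to 74592616. The HOXA9 list had 1, at 74491985 to 74557292. The PML-RARa list had 2, at 74480556 to 74490867 and 74491905 to 74557368. The MLL-AF9 list had 2, at 74491986 to 74556202 and 74557140 to 74594785. Inside the window these covered 63.0 kb in non-transduced cells, 65.3 kb with HOXA9, 66.3 kb with PML-RARa and 102 kb with MLL-AF9.

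The main HoxD peak began at almost the same base in all 4 lists, with left ends spread over 81 bp. Such a match was rare over the whole list. With a limit of 100 bp, chosen after the data were seen, 7 of 1332 non-transduced peaks (0.526%) had a left end matched in all 3 other lists. The main HoxD peak was the 1 of 12 cluster peaks among them. However, 68.7% of the non-transduced peaks had no overlapping HOXA9 peak and could hardly match. The share among peaks found in all 4 lists was not computed. For right ends the share of the whole list was 0.375%, and 0 of the 12 cluster peaks were matched. The main peak's right end lay within 76 bp in HOXA9 and PML-RARa and within 1166 bp when MLL-AF9 was added. In non-transduced cells the main peak ended 17328 bp earlier than in PML-RARa.

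All 4 lists covered 50.4 kb of the HoxD window in common (42.0%), and the oncogene lists together covered a further 13.9 kb that the non-transduced list did not. In the non-transduced list 1 peak number was missing between 74543307 and 74580900, so a numbered call that was not listed may lie in that stretch. The longer MLL-AF9 cover came from its second peak, of 37.6 kb, and 25.7 kb of the window was covered in MLL-AF9 only. The separate non-transduced peak of 11.7 kb lay wholly under this second MLL-AF9 peak. No number was missing in HOXA9 or PML-RARa between the main peak and the next listed one, so no numbered call of those libraries was left out on the right side of HoxD.

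The ratio of covered length at HoxD was 1.04 with HOXA9, 1.05 with PML-RARa and 1.62 with MLL-AF9. The HOXA9 value took the other side of 1 (0.899) when windows were widened by 20 kb or whole peaks were counted. The value of 1.62 rested on that second MLL-AF9 peak, which ranked 976 of 1408 by score: with the upper 50% of each list by score the ratio was 1.03. The main peak ranked high by score in every list, at 11 of 1408 in MLL-AF9, 19 of 1772 in PML-RARa, 32 of 1332 in non-transduced cells and 155 of 620 in HOXA9. Its width was 48.1 kb in non-transduced cells and 64.2 to 65.5 kb in the oncogene lists.

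A small peak at the left edge of HoxD, on the side of Hoxd13 and Evx2 by gene order, was listed in non-transduced cells and PML-RARa, with 10.5 and 10.3 kb. Its right ends differed by 5 bp. It crossed the window's edge, with 0.862 and 0.867 kb inside. In HOXA9 and in MLL-AF9 1 number was missing on this side, so whether a call was left out there cannot be told.

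The ParaHox window was the least covered, with 28.0 kb in non-transduced cells (20.7%), 23.0 kb with HOXA9 (17.0%), 24.3 kb with PML-RARa (18.0%) and 52.6 kb with MLL-AF9 (38.9%). Its peaks lay at the left and right sides, and 80.9 kb (59.9%) was covered in no list. By gene order Gsx1 is the leftmost of the 3 genes and Cdx2 the rightmost, with Pdx1 between them.

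On the left, peaks of 12.0, 12.2 and 13.5 kb were listed in 3 libraries: 147993741 to 148005773 in non-transduced cells, 147993896 to 148006066 in PML-RARa and 147992766 to 148006234 in MLL-AF9. Their right ends lay within 461 bp. HOXA9 had none. Between the preceding listed HOXA9 peak on chromosome 5 and the HOXA9 peak at the right of the window, 2 numbers were missing. Whether either lay on the left side cannot be told. By score the left peak ranked 228 of 1408 in MLL-AF9, 1115 of 1332 in non-transduced cells and 1408 of 1772 in PML-RARa.

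On the right, all 4 lists had a peak: 148109064 to 148131398 in non-transduced cells, 148102031 to 148134825 with HOXA9, 148108584 to 148120706 with PML-RARa and 148103591 to 148136182 with MLL-AF9. The common stretch was 11.6 kb. The HOXA9 and MLL-AF9 peaks were the longer ones (32.8 and 32.6 kb, against 22.3 and 12.1 kb), and left ends spread over 7033 bp. They crossed the window's right edge by 9.82 and 11.2 kb, and the non-transduced peak by 6.40 kb.

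A further peak of 17.7 kb, at 148075857 to 148093537, was in the MLL-AF9 list only. The non-transduced and PML-RARa lists had no number missing between their left and right ParaHox peaks, so no numbered call of these libraries was left out there. In HOXA9 the 2 missing numbers before its right peak could lie there. The MLL-AF9 peak ranked 976 of 1408 by score, in the lower part of its list.

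For ParaHox the ratios to the non-transduced list were 0.821 with HOXA9, 0.869 with PML-RARa and 1.88 with MLL-AF9, and they moved with both the score filter and the window's edge. With the upper 75% of each list by score the ratios were 1.44 with HOXA9, 0 with PML-RARa and 3.30 with MLL-AF9. With the window narrowed by 10 kb on each side they were 1.11, 1.07 and 3.02. The HOXA9 and PML-RARa values thus lay on either side of 1 by setting, while the MLL-AF9 value stayed above 1 under all 7 alternatives.

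**Figure D3:**
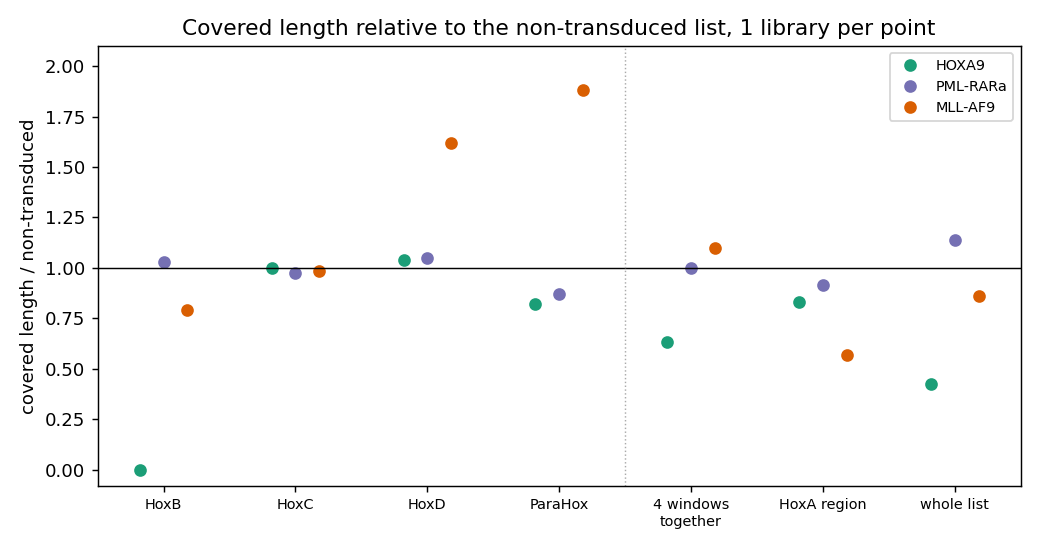
Points give the covered length divided by that of the non-transduced list, for 1 library each, at the 4 windows, over the 4 windows together, at the HoxA region of chromosome 6 and over the whole lists; the line marks 1. HoxC points lie at 0.974 to 1.00, MLL-AF9 is at 1.62 in HoxD, 1.88 in ParaHox and 0.569 in the HoxA region, and HOXA9 is at 0 in HoxB. The HoxA region has no window, so whole peaks are summed there.

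The HoxA region of chromosome 6, the nearest relative of these clusters, showed another pattern. There the covered length was 141 kb in non-transduced cells, 117 kb with HOXA9, 129 kb with PML-RARa and 80.2 kb with MLL-AF9, with ratios of 0.829, 0.917 and 0.569. HoxA had no fixed window, so whole peaks were summed there, while peaks of the other clusters were cut at their windows. In MLL-AF9 the covered length was lower at HoxA and HoxB (0.790), close to the non-transduced one at HoxC and higher at HoxD and ParaHox. With whole peaks the MLL-AF9 ratios were 0.813 at HoxB, 0.975 at HoxC, 1.4 at HoxD and 1.85 at ParaHox. HOXA9 had 3 peaks at HoxA and none at HoxB. The differences between clusters were not tested.

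By median width, the cluster peaks were wider than their lists except in non-transduced cells, but this did not hold for every peak. The median width was 65.3 kb for 3 HOXA9 peaks (17.3 kb for the list), 29.6 kb for 8 PML-RARa peaks (15.9 kb) and 34.9 kb for 9 MLL-AF9 peaks (14.6 kb), but 15.9 kb for 12 non-transduced peaks (18.3 kb). In PML-RARa both ParaHox peaks (12.2 and 12.1 kb) and the narrowest HoxB and HoxD peaks (11.2 and 10.3 kb) lay below the list median. The other 4 PML-RARa peaks were at least 47.0 kb wide. In MLL-AF9 the left ParaHox peak (13.5 kb) lay below the list median, and the others were at least 17.7 kb wide. The non-transduced list divides HoxB and HoxD into more pieces, 9 in all, against 5 in PML-RARa and 5 in MLL-AF9. Median scores stood nearer to those of the lists: 1015 against 928 in non-transduced cells, 1008 against 863 with HOXA9, 975 against 974 with PML-RARa and 1061 against 946 with MLL-AF9. Wider than 50 kb were 2 of the 12 non-transduced peaks (108 of 1332 in the list), 2 of the 3 HOXA9 peaks (35 of 620), 3 of the 8 PML-RARa peaks (86 of 1772) and 3 of the 9 MLL-AF9 peaks (67 of 1408).

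**Figure D4:**
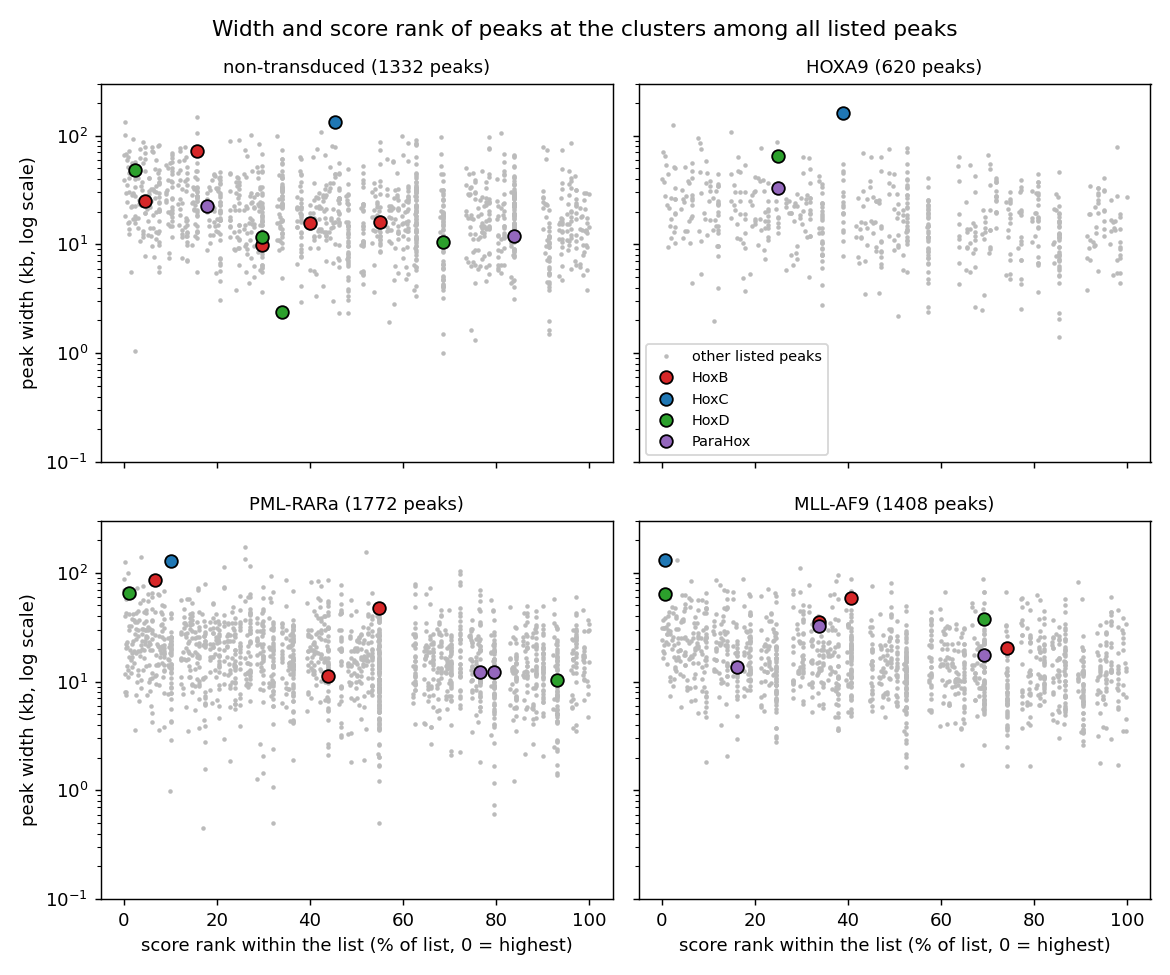
Each point is a listed peak, with its score rank as a percentage of its list (0 is the highest score) on the horizontal axis and its width in kb on a log scale on the vertical axis, in 1 panel per list; larger coloured points are peaks at HoxB, HoxC, HoxD and ParaHox. The HoxC peak lies at the upper edge in all 4 panels, at 129 to 160 kb, while its score rank runs from 0.781% in MLL-AF9 to 45.3% in non-transduced cells.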

How the data were processed

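H2AK119Ub ChIP-seq libraries of 4 groups (1 each) were used; the input was not analysed here. Bowtie, MACS2 and mm9 are named in the submitters' processing notes; their versions and settings, and how the input was used, are not stated there. The deposited files are peak lists called for each library, with position, peak name and a score of unstated scale. Ends are printed counting from 1. Windows were taken as given and members were peaks sharing at least 1 bp with them. Covered length is the part of a window under peaks, except at the HoxA region, where whole peaks were summed. Score ranks were taken within a list. Missing numbers were counted between listed peaks, which ran in order along the chromosomes. All listed peaks in the windows are described. The windows, genes and comparisons were chosen with earlier results of these data known. With 1 library per group no test was made. Stricter lists, equal list lengths, merging within 1000 bp, other window edges and whole peak lengths were tried. The code that counts covered bases and overlaps was tested on simulated data. Python 3.11.15, numpy 2.4.6, pandas 2.3.3 and matplotlib 3.10.9 were used.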

Additional observations from a re-analysis of the deposited data

Results flagged for a closer look

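In 3 of the 4 windows the covered length moved in opposite directions from the non-transduced list in different oncogene lists. Each group had 1 library, the lists share the non-transduced one, and the differences were not tested. In HoxB the difference was -124 kb with HOXA9, 3.85 kb with PML-RARa and -26.1 kb with MLL-AF9. The sign of the PML-RARa difference changed with stricter lists: its cover was 96.9 kb against 108 kb with the upper 50% by score and 85.7 kb against 108 kb with the best 620 peaks. In ParaHox the differences were -5.00 kb with HOXA9, -3.68 kb with PML-RARa and 24.6 kb with MLL-AF9, but with windows narrowed by 10 kb all 3 oncogene lists were above the non-transduced one (ratios 1.11, 1.07 and 3.02). In HoxC they were 0.345 kb with HOXA9, -3.39 kb with PML-RARa and -2.25 kb with MLL-AF9, all small beside the 132 kb covered in non-transduced cells. With narrowed windows all 3 ratios were 1, but the narrowed window lay wholly under peaks in every list, so no other value was possible. With windows widened by 20 kb the HOXA9 ratio was 1.14, and with whole peaks it was 1.2.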

How the results depend on the processing

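Merging peaks within 1000 bp, widening each window by 20 kb and counting whole peaks left every covered length and ratio within 1.5 times its value, but the HoxD ratio of HOXA9 was 0.899 with wider windows and with whole peaks, against 1.04. HoxB kept 3 lists with a peak, and HoxC and HoxD 4, under every alternative; ParaHox had 3 under each score filter. With the upper 50% of each list by score, or the best 620 peaks of each, the MLL-AF9 cover of HoxD was 64.2 kb and its ratio 1.03, since its second peak was left out, and the MLL-AF9 cover of ParaHox was 34.9 kb. With either of these or the upper 75%, ParaHox cover was 15.9 kb in non-transduced cells and 0 in PML-RARa, with ratios of 1.44 in HOXA9 and 0 in PML-RARa; the MLL-AF9 ratio was 3.30 with the upper 75%. Narrowing each window by 10 kb gave 11.7, 13.0 and 12.5 kb in ParaHox for the non-transduced, HOXA9 and PML-RARa lists. The ParaHox ratios were then 1.11 with HOXA9, 1.07 with PML-RARa and 3.02 with MLL-AF9, so the HOXA9 and PML-RARa values changed sides of 1. The HoxC ratios were all 1 with this setting, because every list covered the whole narrowed window (115 kb). With wider windows the HoxC ratio of HOXA9 was 1.14, and with whole peaks 1.2. The HoxB ratio of PML-RARa, 1.03, was 0.896 with the upper 50% and 0.792 with the best 620 peaks. With limits of 200 and 500 bp, chosen after seeing the data, 15 and 40 left ends and 11 and 31 right ends of non-transduced peaks were matched in all other lists. Depth is unknown, so it cannot be said which absences it limits. No paired analysis was possible because each group has 1 library.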

Other observations

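Short breaks between neighbouring peaks were frequent at HoxD. Of its 5 gaps between listed peaks 4 were under 1500 bp (879 to 1095 bp), and of all 17 gaps inside the 4 windows 5 were. A HoxB gap of exactly 1500 bp was not counted. In the whole lists 2.50 to 6.40% of the gaps were under 1500 bp, but those gaps run over whole chromosomes. Gaps between peaks of 1 window are bound to be shorter, so the shares cannot be compared. The smallest gap in any list was 802 to 805 bp. The break between 74490868 and 74491904 on chromosome 2 was covered in no list: the non-transduced and PML-RARa lists had peaks on both of its sides, and the HOXA9 and MLL-AF9 lists began their main HoxD peak at its right side. In the HoxA region each list likewise had 1 break of 865 to 1009 bp at the right end of its first or second peak, next to position 52210289 on chromosome 6.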
